A study of Rattus norvegicus with 8 samples.

Results

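The matrix metalloproteinases Mmp2, Mmp3, Mmp9, Mmp10, Mmp12, Mmp13 and Mmp14 and the tissue inhibitors of metalloproteinases Timp1, Timp2 and Timp3 were followed in a knee ligament of rats, the medial collateral ligament. Members were all probe sets whose single gene symbol in the array's probe table is one of these 10 genes, which gave 12 of the 8799 probe sets on the array: 8 for the 7 proteases and 4 for the 3 inhibitors. Mmp2 and Timp1 had 2 probe sets each and every other gene had 1.

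RNA was profiled at 3 weeks on 8 arrays, 2 in each of 4 groups. Unloaded healing rats had the ligament disrupted on both sides and were suspended by the tail, which takes weight off the hind legs, from 24 h after surgery. Loaded healing rats had the same injury and bore weight. Unloaded control rats were tail-suspended without any surgery, and loaded control rats had a sham operation and bore weight, so unloading and the absence of a sham operation cannot be told apart between the control groups. Strain, sex and age of the rats, and whether the arrays of a group came from separate animals, pools or repeats, were not stated in these sources, and the p-values measure only the spread between these arrays.

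Metalloproteinases are zinc-dependent enzymes that cut extracellular matrix. Most are secreted as inactive precursors and become active when their propeptide is removed, and TIMPs block the active enzymes by binding in their catalytic cleft. Collagenases such as Mmp13 cut the triple helix of fibrillar collagen, gelatinases (Mmp2 and Mmp9) degrade the unwound chains, stromelysins (Mmp3 and Mmp10) have broad substrates and activate other precursors, the macrophage elastase Mmp12 degrades elastin among other substrates, and Mmp14 is a membrane-anchored collagenase that activates pro-Mmp2. In injured ligament and tendon these enzymes take part in clearing and remodelling the scar matrix.

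Mmp13, Mmp12, Mmp3 and Mmp10 lie in this order, with other metalloproteinase genes between and beside them, in a cluster on rat chromosome 8 in the RefSeq gene table of assembly GRCr8. RefSeq promoter windows of GRCr8, from 250 bases before to 50 bases after the gene start, matched 7 of the 10 genes (Mmp3, Mmp10, Mmp12, Mmp13, Timp1, Timp2 and Timp3). The windows of Mmp12 (chr8:12866402-12866701, plus strand), Mmp13 (chr8:12782579-12782878, plus strand), Mmp10 (chr8:12974457-12974756, plus strand) and Timp1 (chrX:3771073-3771372, minus strand) are printed 5′ to 3′ because the first 2 genes were the members called higher in loaded healing, Mmp10 is their dim neighbour and Timp1 is the inhibitor whose dim probe set differed most between loaded healing and the other groups. Capitals mark the AP-1 motif TGAGTCA or its reverse complement TGACTCA.
Mmp12: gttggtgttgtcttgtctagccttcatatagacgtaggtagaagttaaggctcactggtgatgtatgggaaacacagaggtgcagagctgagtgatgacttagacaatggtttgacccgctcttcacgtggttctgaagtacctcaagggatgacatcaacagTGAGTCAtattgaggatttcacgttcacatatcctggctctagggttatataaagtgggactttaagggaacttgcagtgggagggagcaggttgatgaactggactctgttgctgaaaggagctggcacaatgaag
Mmp13: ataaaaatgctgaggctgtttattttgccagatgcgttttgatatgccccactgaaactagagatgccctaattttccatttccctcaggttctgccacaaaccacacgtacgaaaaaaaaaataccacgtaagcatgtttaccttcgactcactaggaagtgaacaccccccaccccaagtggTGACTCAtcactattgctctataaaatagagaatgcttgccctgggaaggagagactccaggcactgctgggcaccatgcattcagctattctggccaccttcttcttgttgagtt
Mmp10: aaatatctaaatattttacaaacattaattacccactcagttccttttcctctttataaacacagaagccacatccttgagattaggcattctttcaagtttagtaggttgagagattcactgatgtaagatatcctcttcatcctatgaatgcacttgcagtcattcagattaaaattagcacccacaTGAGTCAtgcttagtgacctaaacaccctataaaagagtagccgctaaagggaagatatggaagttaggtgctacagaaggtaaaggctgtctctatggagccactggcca
Timp1: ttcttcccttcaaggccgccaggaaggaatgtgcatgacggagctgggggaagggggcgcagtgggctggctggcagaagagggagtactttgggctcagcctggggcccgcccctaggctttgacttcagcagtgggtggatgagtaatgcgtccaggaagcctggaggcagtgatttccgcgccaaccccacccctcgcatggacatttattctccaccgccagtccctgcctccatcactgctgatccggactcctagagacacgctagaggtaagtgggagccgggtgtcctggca
The AP-1 letters were found, on either strand, in 4 of the 7 member windows (Mmp3, Mmp10, Mmp12 and Mmp13) and in 4.63% of 33469 rat promoter windows of the same length. Counted from the gene start, the motif began at -87 in Mmp12, -66 in Mmp13, -61 in Mmp10 and -71 in Mmp3. The same 4 windows held the TATA box letters TATAAA (14.2% of all windows). The Ets letters AGGAAG were found in Mmp3, Mmp13 and Timp1 (34.5% of all windows) and the Runx letters AACCACA in Mmp13 (5.57%). No AP-1 match overlapped a match of another motif. Only these exact letters and their reverse complements were searched, so a window without a match can still hold a variant site. These matches describe the letters of the windows and not factor binding.

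Values are the authors' linear signal intensities per probe set, and tests were run in limma on log2(signal + 45.8), where 45.8 is the 10th percentile of the table. Probe sets in the dimmest 40% by mean log2 value were not tested. Of the 12 members 9 were tested, 6 for proteases and 3 for inhibitors; Mmp10, Mmp9 and the dimmer Timp1 probe set (rc_AI169327_g_at) were below the filter, and their p-values come from the fit without it. Mmp9 lay just under the limit, with a mean log2 signal of 7.88 against a limit of 7.89. Mmp13 passed through the loaded healing arrays: its mean log2 signal was 8.23 over all 8 arrays and 7.64 without those 2.

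The unloaded control arrays stood apart. Over the 5244 tested probe sets, they correlated with the remaining 6 arrays at Pearson's r between 0.492 and 0.608, while these 6 correlated among themselves at 0.761 to 0.872. Their actin 5′/3′ ratios, a sign of RNA or labelling quality, were 0.964 and 0.634 against 0.237 to 0.529 on the other arrays. Their GAPDH 5′/3′ ratios, 0.953 and 0.712, lay on either side of the 0.729 to 0.896 of the other arrays. The measured markers of tendon and ligament cells, 3 of 6 (Comp, Fmod and Thbs4), summed to 2464 and 2255 on unloaded healing, 4463 and 4187 on loaded healing, 507 and 475 on unloaded control and 6282 and 6633 on loaded control arrays. Comparisons with unloaded controls therefore rest on arrays with little of the tissue's marker signal. Among the other 3 groups arrays of the same replicate number shared some deviations: Kdr, an endothelial receptor, read 244.7 and 3546 in unloaded healing, 256.9 and 3450 in loaded healing and 130.9 and 3105 in loaded control, with replicate 1 first, and loaded control 1 correlated more with unloaded healing 1 (0.872) than with loaded control 2 (0.825). What the numbers mark was not stated. In bulk RNA, fewer cells of a type and less RNA per cell cannot be told apart.

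**Figure D1:**
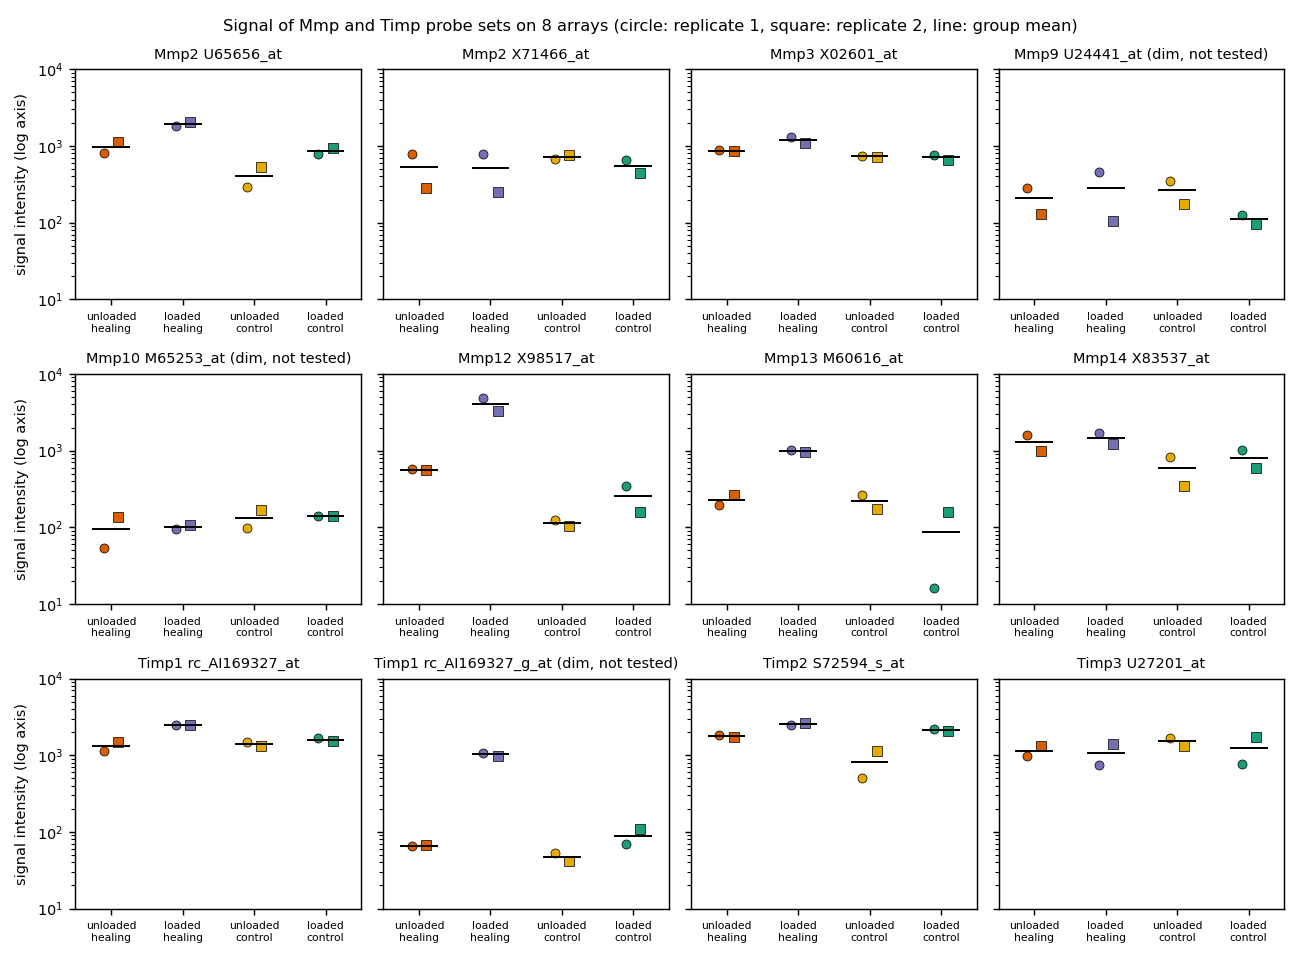
Signal intensity (log axis) of each of the 12 Mmp and Timp probe sets by group; circles are replicate 1, squares replicate 2 and lines group means. Mmp12, Mmp13 and the dim Timp1 probe set stand high on the loaded healing arrays, at 3319 to 4904, 962 to 1004 and 986 to 1078.

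Mmp12, the macrophage elastase, varied most among the proteases. Its probe set (X98517_at) read 569.0 and 561.1 in unloaded healing, 4904 and 3319 in loaded healing, 122.9 and 102.9 in unloaded control and 350.4 and 157.4 in loaded control ligaments. The groups did not overlap in any pair, in the order loaded healing, unloaded healing, loaded control, unloaded control. Mmp12 was 14.4-fold higher in loaded healing than in loaded control (log2 3.85 ± 0.44 SE, limma adjusted p = 0.00212). It was 6.68-fold lower in unloaded than in loaded healing (log2 -2.74 ± 0.44, adjusted p = 0.0148) and 3.86-fold higher in unloaded healing than in unloaded control (log2 1.95 ± 0.44, adjusted p = 0.0219). The neighbours at the low end did not pass: unloaded healing over loaded control was log2 1.11 ± 0.44 (adjusted p = 0.808) and unloaded over loaded control was log2 -0.84 ± 0.44 (adjusted p = 0.362). The difference between the healing effects in unloaded and loaded rats was log2 -1.90 ± 0.62 and did not pass (adjusted p = 0.174). It passed with an offset 4 times as large. Without loaded healing 1 the loaded healing call ended narrowly (adjusted p = 0.0502), and the call between healing groups ended without loaded healing 1 (0.208), loaded healing 2 (0.0781), unloaded healing 1 (0.0648) or unloaded healing 2 (0.0925), with the direction kept each time. The call over unloaded control ended without loaded healing 1 (0.0565), unloaded control 1 (0.0719), unloaded control 2 (0.105), unloaded healing 1 (0.0860) or unloaded healing 2 (0.0864).

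Mmp13, the main interstitial collagenase of rodents, was the other protease called higher in loaded healing. Its probe set (M60616_at) read 195.3 and 263.5 in unloaded healing, 1004 and 962.5 in loaded healing, 265.5 and 173.5 in unloaded control and 16.0 and 156.5 in loaded control ligaments. Both loaded healing arrays lay far above the other 6, and unloaded healing overlapped with unloaded control. Mmp13 was 9.20-fold higher in loaded healing than in loaded control (log2 3.20 ± 0.63, adjusted p = 0.0340). Unloaded over loaded healing was log2 -1.91 ± 0.63 and did not pass (adjusted p = 0.244), and unloaded healing over unloaded control was log2 0.06 ± 0.63 (95% interval -1.34 to 1.47). The difference between the healing effects, log2 -3.14 ± 0.89, did not pass either (adjusted p = 0.0974). It passed with an offset 4 times as large and with spike-in scaling. The low reading of loaded control 1 (16.0) bears on the size: without that array loaded healing over control was log2 2.35 (adjusted p = 0.164). Without loaded control 2 it was log2 4.06 (adjusted p = 0.0318), and the difference between the healing effects was log2 -3.99 (adjusted p = 0.0221). The call also ended without loaded healing 1 (adjusted p = 0.218), loaded healing 2 (0.189), unloaded control 1 (0.0601) or unloaded control 2 (0.0581), and without the brightness filter (0.0633).

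The stromelysins showed no call. Mmp3 (X02601_at), which cuts many matrix proteins and activates other metalloproteinases, read 886.1 and 851.6 in unloaded healing, 1296 and 1098 in loaded healing, 751.2 and 728.5 in unloaded control and 754.2 and 665.2 in loaded control. Healing arrays lay above the control arrays at either loading, in a narrow range. Loaded healing over loaded control was log2 0.72 ± 0.29 (adjusted p = 0.353) and unloaded over loaded healing log2 -0.44 ± 0.29 (adjusted p = 0.661). As a description, Mmp3 and Mmp12 had Pearson's r = 0.963 in log2 signal over the 8 arrays, which share scaling and group structure. Mmp10 (M65253_at), the related stromelysin, was dim throughout, at 53.1 and 134.4, 94.1 and 105.9, 97.0 and 167.0, and 141.4 and 141.7 in the same order of groups. Its loaded healing arrays lay below the loaded controls, and its log2 differences ran from -0.49 to -0.10 over the 5 pairwise comparisons, with SE 0.48.

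The gelatinase Mmp2, which degrades denatured collagen and basement membrane, was read differently by its 2 probe sets. U65656_at read 821.8 and 1129 in unloaded healing, 1809 and 2050 in loaded healing, 294.0 and 527.2 in unloaded control and 796.9 and 942.7 in loaded control. Loaded healing stood above every other array and unloaded control below every other array. Loaded healing over loaded control was log2 1.11 ± 0.35 (adjusted p = 0.192), unloaded over loaded healing log2 -0.97 ± 0.35 (adjusted p = 0.297) and unloaded healing over unloaded control log2 1.19 ± 0.35 (adjusted p = 0.0722). None of these passed on all arrays with the values as deposited and no block. Unloaded healing over unloaded control passed on all arrays with replicate number as a block (adjusted p = 0.0403), after quantile normalization and after median centring. Without unloaded control 2 it was log2 1.57. X71466_at read 782.3 and 283.1, 774.2 and 248.5, 678.7 and 755.1, and 648.2 and 446.2 in the same order, so that arrays of a healing group differed more from each other than the groups did. Its log2 difference in loaded healing over control was -0.25 ± 0.59, opposite in sign to the other probe set, though it read 0.11 after scaling to the spike-in controls.

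Mmp9 (U24441_at), the gelatinase of neutrophils, macrophages and osteoclasts, read 286.2 and 129.7 in unloaded healing, 451.2 and 106.5 in loaded healing, 352.1 and 175.2 in unloaded control and 127.3 and 96.5 in loaded control. The healing groups overlapped, and the spread within each was wider than the gap between them. Loaded healing over loaded control was log2 0.81 ± 0.69, with a 95% interval of -0.75 to 2.37. Mmp14 (X83537_at), the membrane-type collagenase and activator of pro-Mmp2, read 1588 and 979.9 in unloaded healing, 1697 and 1208 in loaded healing, 824.7 and 346.3 in unloaded control and 1032 and 586.6 in loaded control. Both healing groups lay above unloaded control, and loaded healing lay above loaded control. Healing over control was log2 1.15 ± 0.45 in unloaded rats (adjusted p = 0.200; adjusted p = 0.0464 with replicate number as a block) and log2 0.84 ± 0.45 in loaded rats (adjusted p = 0.559).

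Among the inhibitors, Timp1, the inducible secreted TIMP, was highest in loaded healing on both of its probe sets, which differed in level and in size of change. The bright one (rc_AI169327_at) read 1122 and 1494 in unloaded healing, 2482 and 2476 in loaded healing, 1506 and 1328 in unloaded control and 1665 and 1527 in loaded control. The dim one (rc_AI169327_g_at) read 64.9 and 67.8, 1078 and 986.3, 52.8 and 41.9, and 68.7 and 110.6 in the same order. On each, both loaded healing arrays exceeded all 6 others. On the bright probe set loaded healing over loaded control was log2 0.62 ± 0.24 (adjusted p = 0.315) and unloaded over loaded healing log2 -0.91 ± 0.24 (adjusted p = 0.120), and neither passed. On the dim probe set, in the fit without the brightness filter, the values were log2 3.01 ± 0.47 (adjusted p = 0.0261) and log2 -3.26 ± 0.47 (adjusted p = 0.0220). The probe sets are named for the same sequence record, so the size of the Timp1 change is uncertain. Its direction was the same on both in the comparisons with loaded healing. In unloaded healing over unloaded control the signs differed, at log2 -0.12 on the bright and 0.27 on the dim probe set.

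Timp2, a constitutive inhibitor that also takes part with Mmp14 in activating pro-Mmp2, read 1811 and 1706 in unloaded healing, 2465 and 2620 in loaded healing, 502.7 and 1141 in unloaded control and 2189 and 2049 in loaded control on its probe set (S72594_s_at). The unloaded controls were below every other array. Unloaded over loaded control was log2 -1.42 ± 0.33 (adjusted p = 0.0289), a call that ended without unloaded control 1 (log2 -0.87, adjusted p = 0.119), without loaded control 1 (0.136), loaded control 2 (0.105), loaded healing 1 (0.0574) or loaded healing 2 (0.0581). Without unloaded control 2 it read log2 -1.98. Unloaded healing over unloaded control was log2 1.16 ± 0.33 over all arrays as deposited (adjusted p = 0.0699) and log2 1.72 without unloaded control 2. On all arrays it passed after quantile normalization and after median centring. Loaded healing over loaded control was log2 0.26 ± 0.33 (adjusted p = 0.881), although these groups did not overlap. Timp3 (U27201_at), which binds to the matrix, read 986.7 and 1310 in unloaded healing, 738.9 and 1406 in loaded healing, 1701 and 1339 in unloaded control and 766.1 and 1720 in loaded control. Its groups overlapped except that unloaded healing lay below unloaded control, and its log2 differences over the 5 pairwise comparisons ran from -0.39 to 0.38 with SE 0.42.

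**Figure D2:**
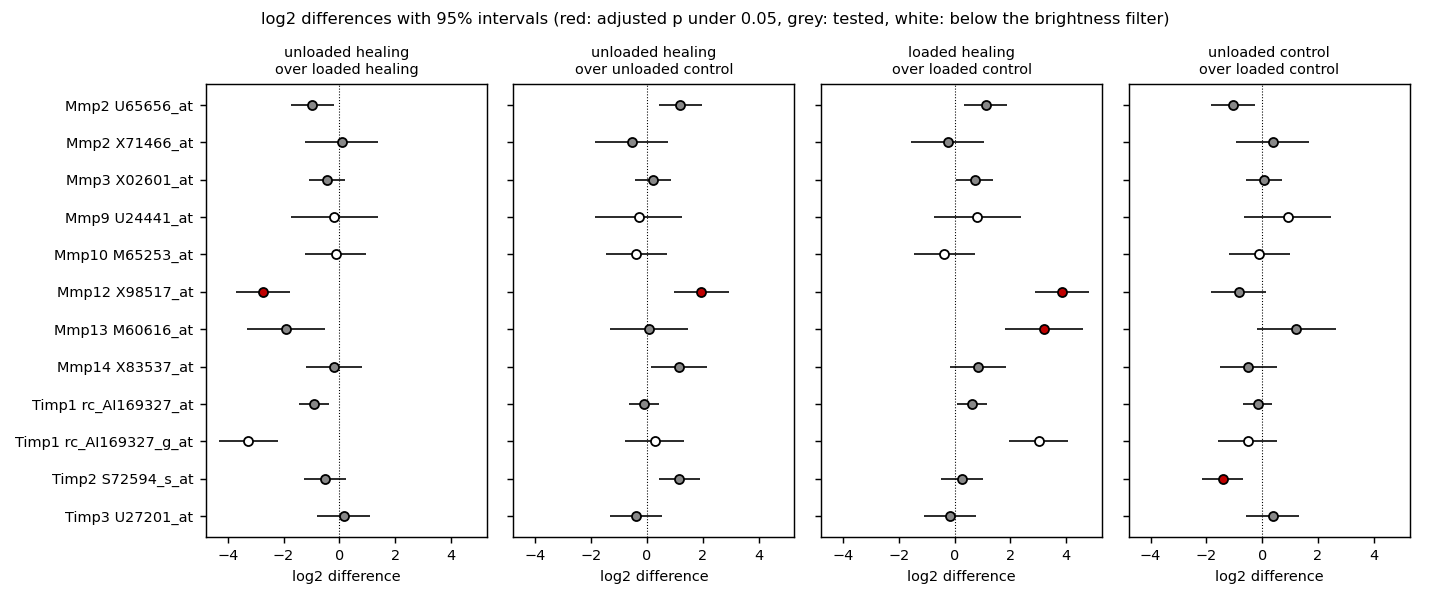
log2 differences (horizontal axis) of the 12 probe sets in 4 comparisons with 95% intervals; red points passed an adjusted p of 0.05, grey points were tested and did not pass, and white points were below the brightness filter. Mmp12 passed in 3 comparisons, Mmp13 in loaded healing over loaded control, and Timp2 in unloaded over loaded control.

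Counted over the tested members, 2 of 9 rose in loaded healing over loaded control, where 1.03% of all tested probe sets rose, and 0 fell, where 0.992% of all did. Mmp13, 1 of these 2, had passed the brightness filter only through the loaded healing arrays, and without the filter it was not called (adjusted p = 0.0633), so nothing is read from this count. In unloaded over loaded healing 1 of 9 fell, where 0.858% of all did, and 0 rose (0.763% of all). In unloaded healing over unloaded control 1 of 9 rose, where 6.41% of all did, and 0 fell (1.05% of all). In unloaded over loaded control 1 of 9 fell, where 6.22% of all did, and 0 rose (0.591% of all). In unloaded healing over loaded control 0 of 9 members were called by limma (1 at an unadjusted p under 0.05, Mmp12), where 0.0763% of all were called (5.55% at an unadjusted p under 0.05). For the difference between the healing effects 0 of 9 were called (2 at an unadjusted p under 0.05, Mmp12 and Mmp13), where 4.84% of all were (12.9% at an unadjusted p under 0.05). The split of all calls into higher and lower moved with the scaling. In loaded healing over loaded control it was 54 higher and 52 lower as deposited and 84 and 22 after spike-in scaling, and in unloaded over loaded healing 40 and 45 as deposited and 18 and 119 after spike-in scaling. In unloaded healing over unloaded control it was 336 and 55 as deposited and 391 and 237 after quantile normalization, and in unloaded over loaded control 31 and 326 as deposited and 207 and 386. For the difference between the healing effects it was 237 and 17 as deposited, 251 and 77 after quantile normalization and 184 and 48 after spike-in scaling.

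By position alone, 8 of the 12 members had both loaded healing arrays above both loaded control arrays, as did 18.1% of all probe sets, and 1, Mmp10, had them below, as did 19.7% of all. In unloaded against loaded healing, 7 of 12 lay wholly below, as did 16.9% of all, and 0 wholly above, where 21.6% of all did. In unloaded healing against unloaded control 6 lay above (15.2% of all) and 1 below (32.8%), in unloaded against loaded control 3 lay above (34.2%) and 5 below (13.5%), and in unloaded healing against loaded control 4 lay above (17.5%) and 4 below (14.3%). The median log2 difference of the 8 protease probe sets was 0.83 in loaded healing over control and that of the 4 inhibitor probe sets 0.44, against -0.03 over all probe sets. In unloaded over loaded healing the medians were -0.31 for proteases and -0.72 for inhibitors, against 0.06 over all. Proteases and inhibitors thus had medians of the same sign in each of these comparisons. These comparisons share the loaded healing arrays.

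The balance of proteases and inhibitors was described as the mean log2 signal of the protease probe sets minus that of the inhibitor probe sets on each array. Only differences between arrays can be read, because probe sets differ in brightness for reasons other than transcript level. With all 12 probe sets it was -0.44 and -0.79 in unloaded healing, -0.58 and -1.31 in loaded healing, -0.67 and -0.94 in unloaded control and -1.04 and -1.47 in loaded control. Loaded healing overlapped with every other group, and unloaded healing lay above loaded control. Protease means were 1.24 log2 units higher in loaded healing than in loaded control and inhibitor means 0.93 higher, so the balance differed by 0.31, less than the pooled SD between arrays of a group (0.34); without loaded healing 1 it differed by -0.061. In unloaded over loaded healing the protease mean was lower by 0.81 and the inhibitor mean lower by 1.14 (differences -0.81 and -1.14), and the balance differed by 0.33, or by -0.042 without loaded healing 2.

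The balance between the healing groups changed sign with the probe sets taken. Without the dim Timp1 probe set alone, loaded healing over loaded control was 1.00 and unloaded over loaded healing -0.38; without Mmp2 X71466_at alone they were 0.52 and 0.20. With 1 probe set per gene, the brightest, it was -1.43 and -1.66 in unloaded healing, -0.68 and -1.39 in loaded healing, -1.69 and -2.09 in unloaded control and -2.08 and -2.42 in loaded control. Loaded healing then lay above all other arrays, higher than loaded control by 1.21 log2 units, and unloaded over loaded healing became -0.51, opposite in sign to the 0.33 with all probe sets. Leaving out Mmp12 alone, with the other 11 probe sets kept, gave -0.064 for loaded healing over control. Direction and size of the balance between healing groups are therefore not fixed by these data. Unloaded healing over loaded control stayed positive, at 0.64 with all probe sets, 0.70 with 1 per gene and 0.54 without Mmp12. Unloaded over loaded control, which shares the loaded control arrays, stayed positive too (0.45 with all probe sets).

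**Figure D3:**
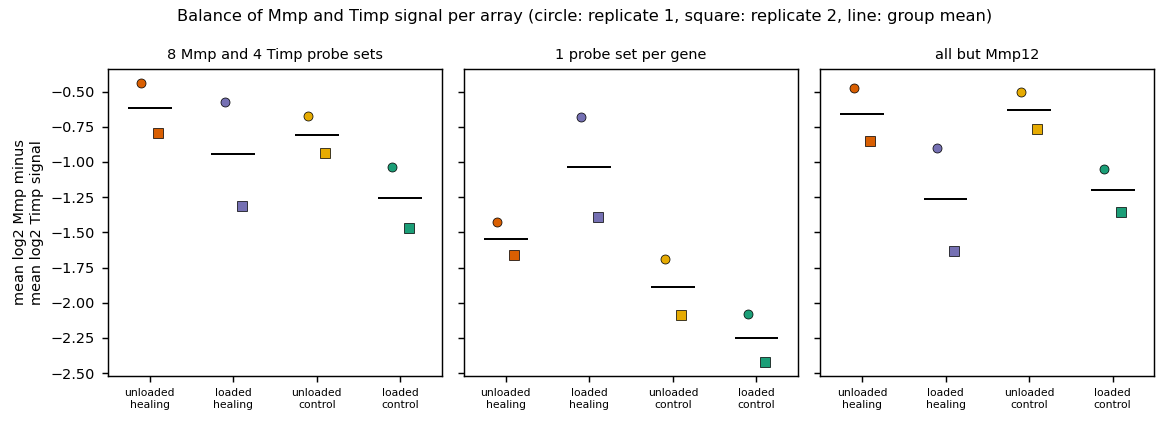
Mean log2 signal of Mmp probe sets minus that of Timp probe sets per array (vertical axis) with all 12 probe sets, with 1 probe set per gene and without Mmp12; circles are replicate 1, squares replicate 2 and lines group means. Loaded healing overlaps every other group with all probe sets and lies above the other groups with 1 per gene.

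Some macrophage markers shared the high loaded healing signal of Mmp12. Of 15 listed markers 8 were measured and 6 tested. Of these 3 rose in loaded healing over loaded control, where 1.03% of all tested probe sets rose, and 0 fell. The same 3 fell in unloaded over loaded healing, where 0.858% of all fell, and 0 rose. They were the lysozyme Lyz2, the lysosomal protease Ctss and galectin-3, Lgals3. Lyz2 and Lgals3, but not Ctss, also rose in unloaded healing over unloaded control, where 6.41% of all rose. Ctss read 734.8 and 770 in unloaded control and 673.3 and 673.1 in loaded control. For the difference between the healing effects Ctss was lower (log2 -1.58 ± 0.38, limma adjusted p = 0.0411) and 0 markers were higher, where 4.84% of all were called in either direction. Lyz2 read 2422 and 2466 in unloaded healing, 16260 and 13978 in loaded healing, 578.1 and 516.9 in unloaded control and 2144 and 1392 in loaded control. The 8 markers summed to 6861 and 7455 in unloaded healing, 25528 and 23261 in loaded healing, 4587 and 4409 in unloaded control and 5922 and 5975 in loaded control. Lyz2 made up most of the difference. Cd14 did not follow, at 986.4 and 1392 in loaded healing and 1119 and 1742 in loaded control, nor did Aif1, at 495.8 and 414.1 in loaded healing and 531.6 and 436.3 in loaded control. Csf1r, the receptor that defines the lineage, was dim and did not follow either, at 64.5 and 74.0 in loaded healing and 99.8 and 95.2 in loaded control, and 0 of the 8 markers were listed at 0. The part of macrophages in the Mmp12 result was not tested.

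Of the osteoclast markers 3 of 5 were measured, and they summed to 1799 and 1620 in unloaded healing, 3080 and 2382 in loaded healing, 1366 and 804 in unloaded control and 1462 and 926 in loaded control. Ctsk, a collagen-degrading cysteine protease also made by activated fibroblasts, read 1046 and 1301, 2076 and 1317, 86.3 and 158.5, and 356.3 and 147.5 in this order, and rose in both healing comparisons (loaded: log2 2.61 ± 0.49, adjusted p = 0.0266; unloaded: log2 2.88 ± 0.49, adjusted p = 0.00351). Acp5, the other osteoclast marker tested, did not pass in either, at log2 0.10 in loaded and -0.90 in unloaded rats. Neutrophil markers, 3 of 6 measured, summed to 349 and 1196, 480 and 1077, 1063 and 1244, and 704 and 845, and cartilage markers, 4 of 5, to 1172 and 1757, 1316 and 1496, 2730 and 2600, and 1444 and 1498; neither sum separated loaded healing from loaded control. The 9 fibroblast markers summed to 68373 and 54499 in unloaded healing, 137233 and 118803 in loaded healing, 4379 and 4293 in unloaded control and 108249 and 87799 in loaded control. Endothelial markers, 3 of 6 measured, summed to 998 and 4328, 751 and 4139, 3582 and 4349, and 501 and 3890 in that order, the 5 smooth muscle markers to 2013 and 2124, 3607 and 3160, 2113 and 2438, and 1954 and 2527, and the 6 skeletal muscle markers to 9408 and 9087, 13083 and 10368, 3527 and 4103, and 7610 and 7047. Outside unloaded control Col1a1 made up most of the fibroblast sum. Of the 9 markers 7 fell in unloaded over loaded control, where 6.22% of all tested probe sets fell. Pdgfra, at 877.6 and 870.9 in unloaded control and 699.3 and 891.2 in loaded control, did not fall. Nor did Pdgfrb, at 378.7 and 728.9 against 251 and 569. The low signal of the other fibroblast markers on the unloaded control arrays goes with the low Timp2 and Mmp2 U65656_at readings there. Its part in them was not tested.

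**Figure D4:**
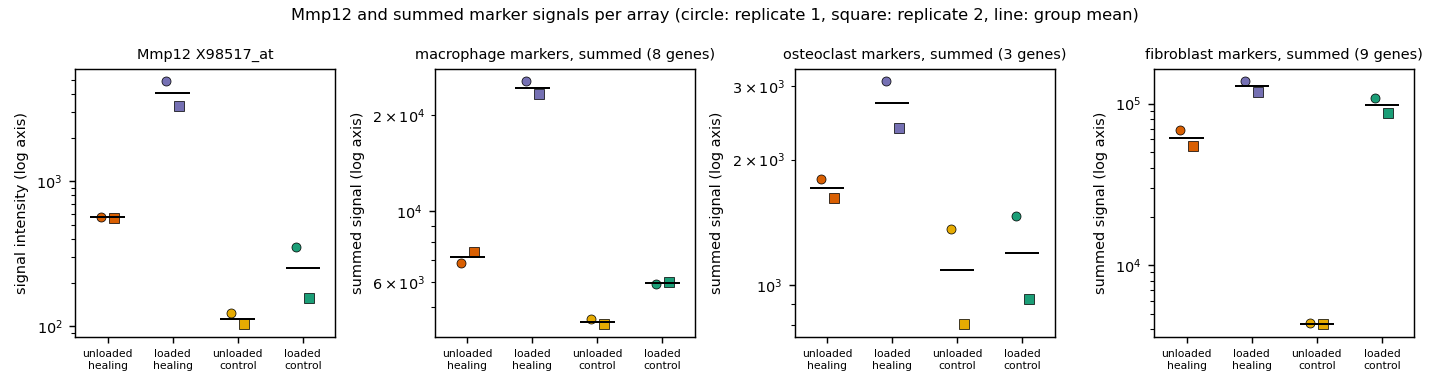
Signal of Mmp12 and summed signals of macrophage, osteoclast and fibroblast markers (log axes) by group; circles are replicate 1, squares replicate 2 and lines group means. The macrophage sum is 23261 and 25528 in loaded healing and at most 7455 on the other arrays, and the fibroblast sum is lowest in unloaded control.

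Other genes of the proteolytic system were taken from lists, with 1 probe set per gene. Among other metalloproteinases, ADAMs and ADAMTSs, limma called 0 of 5 tested genes (Mmp7, Mmp11, Mmp16, Mmp23 and Adam10) in each of the 6 contrasts, with 0 to 2 at an unadjusted p under 0.05. Of the listed genes for activation, partners and clearance of metalloproteinases 12 were tested, among them Furin, which cleaves pro-Mmp14, and the metalloproteinase inducer Bsg. The clearance receptor Lrp1 was not among those tested. Of the 12, limma called 0 in each contrast, with 1 or 2 at an unadjusted p under 0.05. Among transcription factors and cytokines that induce metalloproteinase genes (10 tested, among them the AP-1 members Fos and Jun, Il1b and Il6) it called 0 in each contrast, with 1 to 3 at an unadjusted p under 0.05, and the median in loaded healing over control was 0.14 against -0.03 over all tested probe sets.

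Of 6 tested genes of plasminogen activation, the cascade that yields plasmin and can activate metalloproteinase precursors, 0 passed in loaded healing over control (1 at an unadjusted p under 0.05) and 0 in unloaded over loaded healing (0 at an unadjusted p under 0.05). In unloaded healing over unloaded control, where 6.41% of all tested probe sets rose, 2 rose. They were S100a10 (log2 5.48) and Anxa2 (log2 2.02), partners in a plasminogen-binding complex. The same 2 fell in unloaded over loaded control (log2 -5.48 and -2.20), where 6.22% of all fell. For the difference between the healing effects they were higher (log2 5.29 and 2.67) and 0 genes were lower, where 4.84% of all were called in either direction. These comparisons share the unloaded control arrays.

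Of 17 tested metalloproteinase substrates, 2 rose and 2 fell in loaded healing over loaded control, where 1.03% of all tested probe sets rose and 0.992% fell. Their median was 0.10 against -0.03 over all. Those with the smallest adjusted p were osteopontin, Spp1 (log2 4.27 ± 0.33), a higher one, and the matrix glycoprotein Comp (log2 -2.74 ± 0.45), a lower one. In unloaded over loaded healing 4 fell and 0 rose, where 0.858% of all fell and 0.763% rose. The median was -0.77 against 0.06 over all tested probe sets. The lower ones were led by Spp1 (log2 -3.78 ± 0.33) and the type I collagen chain Col1a2 (log2 -1.99 ± 0.19). In unloaded healing over unloaded control 7 rose and 0 fell, where 6.41% of all rose and 1.05% fell, with a median of 1.30 against -0.23. The higher ones were led by the collagen chains Col1a1 (log2 5.76 ± 0.20) and Col3a1 (log2 4.02 ± 0.23). In unloaded over loaded control 0 rose and 10 fell, where 0.591% of all rose and 6.22% fell. The lower ones were led by Col1a1 (log2 -6.44 ± 0.20) and Col1a2 (log2 -3.78 ± 0.19). The median there was -1.65 against 0.23. For the difference between the healing effects 7 were higher and 1 lower, where 4.84% of all were called in either direction. Col1a1 (log2 5.52 ± 0.29) and the proteoglycan Bgn (log2 3.78 ± 0.35) had the smallest adjusted p. The median was 0.82 against -0.16, and this contrast also uses the unloaded control arrays. For Spp1, as for Mmp12, loaded healing was higher than loaded control and higher than unloaded healing.

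The genes with the pattern most like a member were taken as the 5 highest Pearson correlations of log2 signal over the 8 arrays among other named, tested probe sets, as a description. For Mmp12 they were Snrnp70 (r = 0.990), Psap (0.988), Lyz2 (0.983), RT1-Da (0.973) and Tpm1 (0.969). For Mmp13 they were Furin (0.966), Cp (0.948), Bhlhe41 (0.938), Cxcl13 (0.932) and Ghr (0.920). For the bright Timp1 probe set they were Hsp90b1 (0.941), Slc2a1 (0.937), Pgam1 (0.936), Hnrnpa2b1 (0.923) and Fhip2a (0.922). The 3 lists had no gene in common.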

How the data were processed

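Expression was measured in rat medial collateral ligament on 8 one-colour arrays, 2 per group, and groups and replicate numbers came from the sample titles. The authors deposited linear signal intensity per probe set, already scaled between arrays (2% trimmed means of 500.3 to 500.6); the software that summarised the probes was not stated in these sources. Every value column was used (0 left out). The 59 control probe sets were set aside. Genes were named through the probe table of the array (7018 probe sets with 1 symbol, 308 with several, 1473 with none), and 6994 were matched by Entrez identifier to the RefSeq table of GRCr8, which changed 0 symbols.

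An offset of 45.8 (10th percentile) was added before log2, which shrinks folds of dim probe sets, and the dimmest 40% were removed, leaving 5244. limma 3.58.1 in R 4.3.3 fitted 1 mean per group to all 8 arrays with an intensity trend in the variance prior. There were 6 two-sided contrasts, adjusted by Benjamini-Hochberg within each, at a threshold of 0.05. The fit was tested on simulated data. The number of arrays limits the precision. The members and gene lists were chosen with earlier results of these data known. Named genes were all members and the 5 genes most like Mmp12, Mmp13 and Timp1. Per list and contrast, the 2 genes with the smallest adjusted p among those past the threshold were also named. Lyz2, Ctss, Lgals3, Cd14, Aif1, Csf1r, Ctsk, Acp5, Kdr, Pdgfra and Pdgfrb were named from the marker lists after their values were seen. Alternatives covered the offset, scaling, filter, variance prior, replicate block, the unloaded control arrays and each array in turn; balances without Mmp12, without the dim Timp1 probe set and without Mmp2 X71466_at were added after seeing the data.

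The labels do not say what a replicate number marks, so the test has no block for it: deviations of same-numbered arrays from their group means correlated at 0.159 to 0.204 among the other 3 groups and at 0.000779 to 0.0144 with unloaded controls.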

Additional observations from a re-analysis of the deposited data

How the results depend on the processing

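Mmp12 kept its direction under every alternative in the 3 comparisons in which it was called, and so did Mmp13 in loaded healing over loaded control and Timp2 in unloaded over loaded control where they were tested. Loaded healing over loaded control had 2 member calls; 1 was left with a filter at 60%, which removes Mmp13 from the test, and 1 when the variance prior had no intensity trend, and leaving out 1 array gave 0 to 2. Without a filter there were also 2, but Mmp13 was no longer called (adjusted p = 0.0633) and the dim Timp1 probe set was. Unloaded over loaded healing had 1; there were 2 without a filter and 2 with spike-in scaling (the second being the dim and the bright Timp1 probe set in turn), 0 without the intensity trend and 0 to 1 with an array left out. Unloaded healing over unloaded control had 1; there were 3 with median centring, 3 with quantile normalization, 3 with the replicate block, 0 with spike-in scaling and 0 to 2 with an array left out. Unloaded over loaded control had 1; there were 0 without a filter, without the intensity trend or with spike-in scaling, and 0 to 1 with an array left out. The difference between the healing effects had 0; there were 2 with an offset 4 times as large, 1 with spike-in scaling (Mmp13, log2 -3.65, adjusted p = 0.0360) and 0 to 1 with an array left out. The cause of these changes was not tested, apart from the filters, which change what is tested. Under the replicate block, for numbers whose meaning the labels do not state, Mmp2 U65656_at (adjusted p = 0.0403) and Mmp14 also passed in unloaded healing over unloaded control. The block changed no other member call. With median centring and with quantile normalization Mmp2 U65656_at and Timp2 also passed in that comparison.

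For the balance, members past the filter gave 1.34 for loaded healing over control, -0.60 for unloaded over loaded healing and -0.88 for the difference between the healing effects, where 1 probe set per gene gave 1.21, -0.51 and -0.87 and all members gave 0.31, 0.33 and -0.12. Without Mmp12 these were -0.064, 0.60 and 0.035, and without the dim Timp1 probe set alone 1.00, -0.38 and -0.80. With an array left out they ran from -0.061 to 0.68, from -0.042 to 0.70 and from -0.49 to 0.25. Unloaded healing over loaded control ran from 0.42 to 0.85, unloaded healing over unloaded control from 0.013 to 0.37 (0.19 with all arrays, -0.029 without Mmp12, 0.46 with members past the filter) and unloaded over loaded control from 0.23 to 0.66.

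Counts over all probe sets moved by more than 1.5 times in these cases, though the ranges given also hold settings that moved less. Loaded healing over control had 106 calls, against 64 with median centring, 70 without a filter, 29 without the intensity trend and 27 to 94 with an array left out. Unloaded over loaded healing had 85, against 42 with median centring, 16 without the trend, 137 with spike-in scaling and 25 to 83 with an array left out. Quantile normalization gave 593 for unloaded over loaded control (357) and 628 for unloaded healing over unloaded control (391). Unloaded healing over loaded control had 4, with 0 to 7 over the alternatives. Spike-in scaling moved the median of all tested probe sets to 0.34 (from -0.03) in loaded healing over control and to -0.40 (from 0.06) in unloaded over loaded healing, and turned the signs of Timp3 and of Mmp2 X71466_at there, none of them called. Median centring moved that median to -0.03 (from -0.23) in unloaded healing over unloaded control and to -0.01 (from 0.23) in unloaded over loaded control. The other sign changes under a scaling were also in differences not called: Mmp3 in unloaded over loaded control, and bright Timp1 and Mmp13 in unloaded healing over unloaded control.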

Other observations

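Replicate 1 read higher than replicate 2 in all 4 groups for 4 of the 12 members (Mmp3, Mmp9, Mmp12 and Mmp14), and replicate 2 higher in all 4 groups for 2 (Mmp2 U65656_at and Mmp10), against 6.86% of all probe sets with replicate 1 higher throughout and 10.2% with replicate 2 higher throughout.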
